A study of Mus musculus with 48 samples.

Results

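The genes described here encode the protein subunits of the mitochondrial respiratory chain and of the ATP synthase, in the nucleus and in mitochondrial DNA. They were chosen by symbol (the Nduf, Sdh, Uqcr, Cyc1, Cox4 to Cox8 and Atp5 families, and the mitochondrial Nd, Co, Cytb and Atp genes) and by a mean level of at least 1 count per 1e6 counts (CPM) over all 48 libraries. Of the 48795 genes in the table, 96 matched the symbols and 90 reached that level: 79 nuclear and 11 mitochondrial genes. All 90 also passed the filter on low counts, which left 19714 genes in the test. The level requirement left out Cox8c at 0.00356 CPM, Cox8b at 0.12, Cox7b2 at 0.21, mt-Nd4l at 0.25, Cox7a1 at 0.45 and mt-Atp8 at 0.72 CPM, while mt-Nd3 at 1.18, Cox6b2 at 1.47 and Cox4i2 at 1.98 CPM were the lowest genes kept.

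RNA was measured by RNA-seq in the dissected striatum of 48 separate C57BL/6 mice, with 4 females and 4 males in each of 6 groups. Without the Q140 allele the groups were wild type (WT), Msh3+/- and Msh3-/-, and with it Q140 alone and its crosses, Q140 x Msh3-/- and, as the intermediate, Q140 x Msh3+/-. Q140 mice carry an expanded CAG repeat knocked into the mouse huntingtin gene, Htt, as a model of Huntington's disease, and the labels give the allele as heterozygous. Msh3 encodes a DNA mismatch repair protein. The labels state an age of 12 months, while their extraction text speaks of 6 months, so the age is uncertain. Msh3 RNA rose with each allele labelled as lost, from 29.0 CPM in WT to 73.9 in Msh3+/- and 122 in Msh3-/- mice, and from 30.5 CPM in Q140 to 74.9 and 115 in its crosses. The directions of all Msh3 comparisons therefore rest on the labels.

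The respiratory chain passes electrons from NADH through complex I, or from succinate through complex II, to ubiquinone, then through complex III and cytochrome c to complex IV, which reduces oxygen. Complexes I, III and IV pump protons across the inner mitochondrial membrane, and the ATP synthase uses the return flow to make ATP. Complex II is encoded in the nucleus alone, whereas the others combine nuclear subunits with a few made inside the organelle. Medium spiny neurons, the main neurons of the striatum, depend on this pathway, and poisons of complex II produce striatal lesions in rodents.

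Counts of some mitochondrial genes depend on how reads matching several places were treated, which is not given in the sources used here. Nuclear chromosomes carry copies of mitochondrial DNA, and a stretch of mouse chromosome 1 holds annotated copies of several of these genes. To show how closely they match, the first 60 bases of mt-Co2 and mt-Nd3 are printed 5′ to 3′ beside their chromosome 1 copies (GENCODE M21 transcripts on GRCm38), with the differing base in capitals.
mt-Co2 (chrM:7013-7072, plus strand): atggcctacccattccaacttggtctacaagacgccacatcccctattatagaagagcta
Gm28661 (chr1:24615506-24615565, minus strand): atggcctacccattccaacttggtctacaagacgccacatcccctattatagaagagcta
mt-Nd3 (chrM:9459-9518, plus strand): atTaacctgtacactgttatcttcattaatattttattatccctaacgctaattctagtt
Gm28438 (chr1:24613060-24613119, minus strand): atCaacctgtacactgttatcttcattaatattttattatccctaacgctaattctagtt
The mt-Co2 and Gm28661 stretches are identical, with 0 mismatches over the 681 aligned bases, and mt-Nd3 differs from Gm28438 by the substitution T3C alone over 345 bases, counted from the first base of the gene. The mt-Atp6, mt-Co3 and mt-Nd4 alignments had 0 mismatches over 678, 783 and 876 bases, and mt-Co1 had 6 over 492.

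Among the 13 mitochondrial mRNAs, those with the most sequence shared with other transcripts stood low in the table. Of the 50-base words in mt-Co2, mt-Co3, mt-Atp6, mt-Nd4l and mt-Nd3, 98.0% to 100% also occurred in another annotated transcript. Mean levels of these genes were 4.16 CPM for mt-Co2, 4.01 for mt-Co3, 2.51 for mt-Atp6, 0.25 for mt-Nd4l and 1.18 for mt-Nd3. By contrast mt-Cytb and mt-Nd1, with 0% shared words, stood at 13690 and 7511 CPM, mt-Nd5 (7.61% shared) at 7409 and mt-Nd2 (8.19% shared) at 5674 CPM. Shared words were not the whole of the order: mt-Co1 was highest at 23870 CPM with 51.1% shared, mt-Nd4 had 4414 CPM with 62.2% shared, and mt-Nd6, the only mRNA encoded on the opposite strand, had 152 CPM with 0% shared. The values for mt-Co2, mt-Co3, mt-Atp6 and mt-Nd3 are therefore uncertain as levels of those mRNAs, and their changes are printed with that limit.

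**Figure D1:**
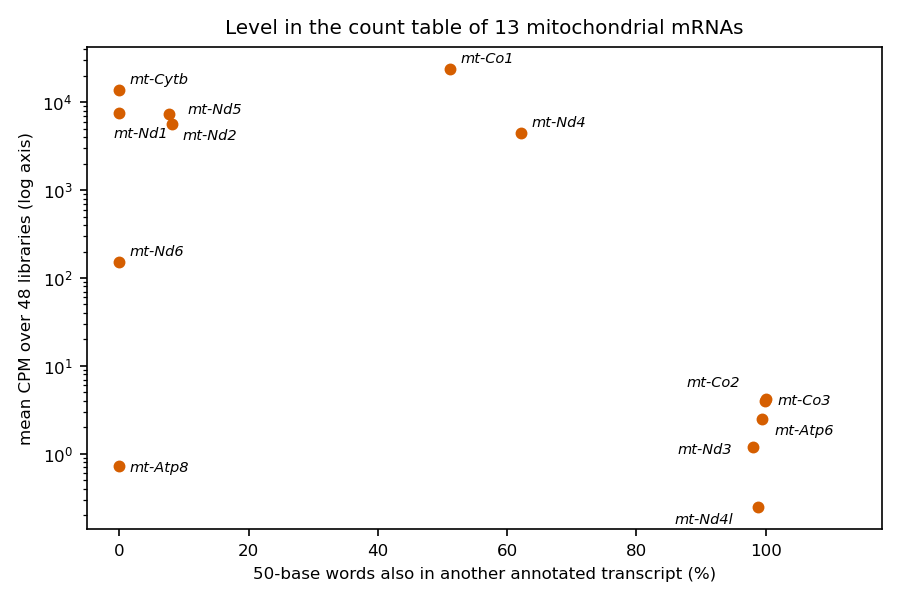
Mean level of the 13 mitochondrial mRNAs over 48 libraries (CPM, log axis) against the percentage of their 50-base words found in another annotated transcript; each point is a gene. The 5 genes with 98.0% or more shared words lie at 4.16 CPM or below, and mt-Atp8 at 0.72 CPM has 0% shared.

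Respiratory chain RNA was dominated by the mitochondrial genes. The 11 mitochondrial genes took 87.9% to 91.9% of all counts assigned to the 90 genes, with a median of 90.2%. Levels per gene length are given as FPKM, as deposited, averaged over all 48 mice. The orders within each complex depend on the gene lengths behind these values, which need not be those of the transcripts. In complex I the highest gene was mt-Nd1 at 7849 FPKM, and the nuclear subunits ran from Ndufb4 at 2.11 to Ndufb9 at 133 FPKM. In complex II they ran from Sdhc, a membrane anchor, at 16.9 to Sdha, the flavoprotein subunit that oxidises succinate, at 97.0 FPKM. In complex III mt-Cytb stood at 11967 FPKM and the nuclear subunits ran from Uqcrq at 25.8 to Uqcrh at 75.6 FPKM. In complex IV mt-Co1 stood at 15450 FPKM, and the nuclear subunits ran from the testis isoform Cox6b2 at 1.33 to Cox8a at 318 FPKM. In the ATP synthase the range was from Atp5g2 at 1.66 to Atp5a1, the catalytic head's alpha subunit, at 229 FPKM. Without division by length Atp5b stood above Atp5a1, at 884 against 717 CPM of total counts. The levels of Ndufb4, Ndufb9 and Atp5g2 are uncertain to the extent of their shared words, 37.0%, 23.4% and 38.3%.

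Where a subunit has tissue isoforms, the widely expressed isoform made up nearly all of the family's FPKM in WT mice: 98.5% for Cox4i1, 97.7% for Cox6a1, 99.3% for Cox6b1, 99.2% for Cox7a2 and 99.9% for Cox8a. In Q140 mice the same shares were 98.8%, 97.9%, 99.1%, 98.9% and 99.9%. The c ring of the ATP synthase, the rotor that protons drive, is encoded by Atp5g1, Atp5g2 and Atp5g3. Atp5g3 held 87.9% ± 0.72 of the family's FPKM in WT and 87.0% ± 0.60 in Q140 mice (SD, n = 8), and Atp5g1 held 9.28% ± 0.52 and 10.7% ± 0.65. These shares depend on the gene lengths behind the FPKM. Without division by length, Atp5g1 is a larger part of the family: mean CPM of total counts was 31.4 for Atp5g1, 123 for Atp5g3 and 2.78 for Atp5g2. Of the words of Atp5g2, 38.3% are shared with other transcripts.

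The nuclear genes varied little between mice of a genotype. The median SD within a genotype was 0.080 on the log2 scale for nuclear and 0.182 for mitochondrial genes, against 0.139 for all genes tested. At a like level the gap was small: the 7805 tested genes at 20 CPM or more had a median SD of 0.082 and the 69 nuclear subunit genes at that level 0.076. Cox6b2 varied most among these genes (SD 0.25). Summed over the 11 genes, mitochondrial RNA ran from 53635 to 73357 CPM in WT mice and from 53092 to 69150 CPM in Q140 mice, so that the groups overlapped over most of their range.

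Libraries held 38.9 to 60.9 M counts (M, 1e6 counts; median 47.3 M), of which 4.94% to 7.30% came from the 13 mitochondrial mRNAs. On the first component of the residuals, with 9.29% of their variance, 4 libraries stood apart: female 1 of Q140 x Msh3+/-, male 1 of Q140 x Msh3-/-, and female 1 and male 1 of Msh3-/-. Another 4 have a different prefix in their column names, 2 WT (female 3 and female 4) and 2 Q140 (female 4 and male 4). What the prefix stands for is not given in the sources used here. Fold changes are log2 differences from edgeR's quasi-likelihood test on the counts of all 48 libraries with sex as a term, with Benjamini-Hochberg adjustment over 19714 genes and a threshold of 0.05. TMM scaling sets the typical gene to no change, and total-count scaling divides by all counts of a library. The choice matters here because the mean TMM factor was 0.977 in WT and 1.02 in Q140 libraries, which raises every Q140 minus WT value by 0.07 under total counts. The median over all genes tested was -0.00 with TMM and 0.06 with total counts. TMM values are given unless total counts are named.

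Q140 was compared with WT to describe the allele's effect on these genes in otherwise unmodified mice. The c-ring gene Atp5g1, the complex I gene Ndufc2 and the complex III gene Cyc1 rose by 0.29, 0.18 and 0.17 on the log2 scale, while the complex I genes Ndufs3 and mt-Nd6 fell by 0.19 and 0.38 (values with errors and tests stand by complex in what follows). Among nuclear genes 18 of 79 rose and 5 fell, with a median log2 change of 0.05, and among mitochondrial genes 0 of 11 rose and 4 fell, with a median of -0.21. Over all genes tested 33.0% passed the test, 17.0% higher (3358) and 16.0% lower (3148). The 27 of 90 genes called were thus close to the background share, and so was the number that rose. Total-count scaling turned the split to 46 higher and 1 lower among nuclear genes (median 0.12) and 0 higher and 1 lower among mitochondrial genes (median -0.14), beside 39.7% called, 29.3% higher and 10.5% lower among all genes. Nuclear changes ran from -0.29 to 0.41 with TMM. Without the 4 libraries of another name prefix, the 9 lower calls came to 4.

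In bulk tissue, fewer cells of a type and less RNA per cell cannot be told apart. The summed level of 14 spiny projection neuron markers was 14266 ± 594 CPM in WT mice and 8355 ± 350 CPM with Q140 (SD, n = 8), with 12 of the 14 lower, 1 higher and none at 0. The Q140 range of 7867 to 8824 CPM did not meet the WT range of 13443 to 15182 CPM. Markers of astrocytes, mature oligodendrocytes, microglia and endothelial or mural cells had 6 of 12, 6 of 12, 7 of 12 and 10 of 12 genes lower and none higher, and their sums went from 5732 to 4925, 6465 to 5661, 546 to 479 and 439 to 358 CPM. The part of cell composition in the respiratory chain results was not tested.

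**Figure D2:**
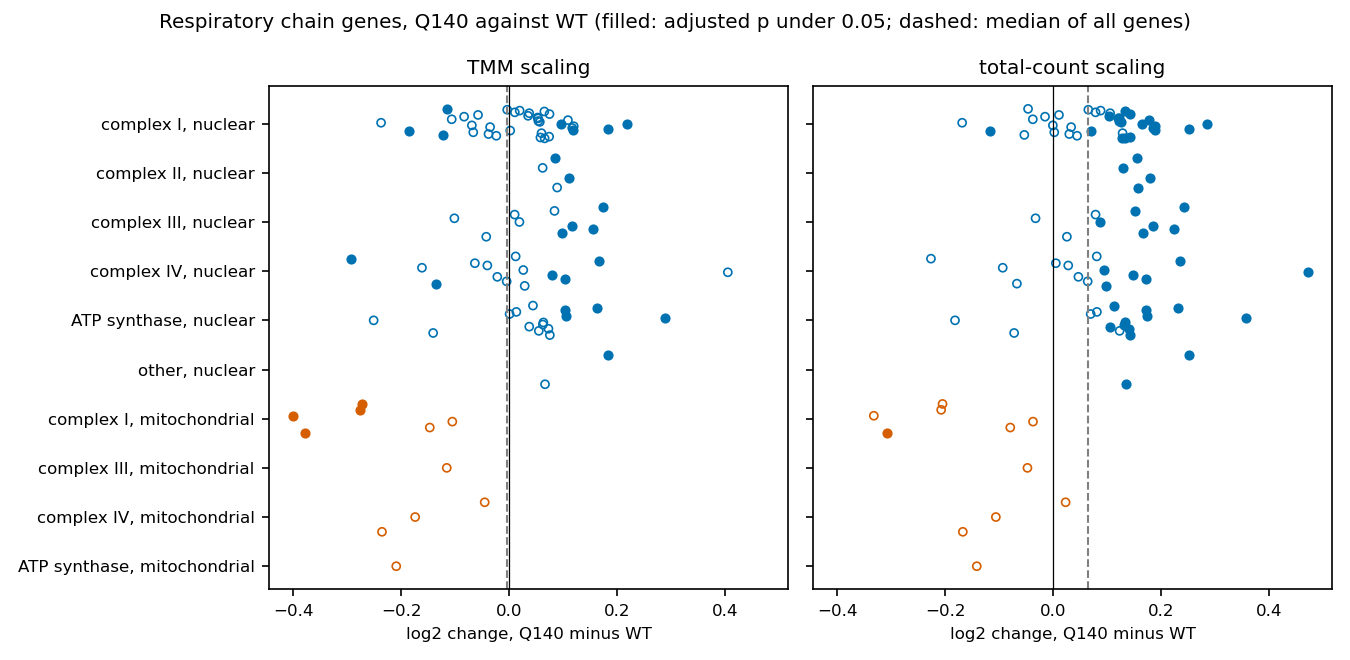
Log2 change between Q140 and WT mice (n = 8 each) of the 90 genes by complex and genome, with TMM scaling (left) and total-count scaling (right); each point is a gene, filled where the adjusted p is under 0.05, and the dashed line is the median of all genes tested. The nuclear counts go from 18 higher and 5 lower on the left to 46 and 1 on the right, while mitochondrial genes lie below the dashed line in both panels.

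In complex I, 4 of 35 nuclear subunit genes rose and 3 fell (median 0.04), and under total counts 18 rose and 1 fell (median 0.11). Ndufs3 (ENSMUSG00000005510, GRCm38 chromosome 2, 90894634 to 90904827, minus strand) encodes a core subunit of the peripheral arm. Its lowest, median and highest levels were 44.4, 44.8 and 49.1 CPM in WT mice and 37.7, 39.3 and 43.5 CPM with Q140. Every Q140 mouse lay below every WT mouse, and the log2 change was -0.19 (SE 0.03, adjusted p = 1.12e-05). It was also the nuclear gene that still fell under total counts (-0.12, adjusted p = 0.00392), where the groups overlapped. Of the 50-base words of Ndufs3, 39.7% are shared, mostly with the processed pseudogene Gm12251 (35.5%), so its count is uncertain to that extent.

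Ndufc2 (ENSMUSG00000030647, chromosome 7, 97400003 to 97407802, plus strand), an accessory subunit of the membrane arm, moved the other way. Its levels were 31.7, 32.4 and 34.7 CPM in WT mice and 35.4, 37.2 and 38.8 CPM with Q140 (lowest, median, highest). All 8 Q140 mice stood above all WT mice, with a log2 change of 0.18 (SE 0.03, adjusted p = 7.86e-06) and 0% shared words. The accessory genes Ndufb6 (0.22, adjusted p = 0.00095) and Ndufb5 (0.10, adjusted p = 0.0166) rose, as did Ndufs1 (0.12, adjusted p = 0.00177), the core subunit with the most iron-sulfur clusters. Besides Ndufs3, the core gene Ndufs7 (-0.12, adjusted p = 0.0161) and the accessory gene Ndufa1 (-0.11, adjusted p = 0.047) fell, neither under total counts (-0.05 and -0.05, adjusted p = 0.341 and 0.418). By class, 1 of 7 core genes rose and 2 fell, and 3 of 28 accessory genes rose and 1 fell. Of the words of Ndufb6, 31.6% are shared with other transcripts.

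In complex II, which feeds electrons from the citric acid cycle, 2 of 4 genes rose (median 0.09), and all 4 rose under total counts (median 0.16). Sdha had 343, 374 and 384 CPM in WT mice and 376, 393 and 417 CPM with Q140 (lowest, median, highest). The groups overlapped, and the log2 change was 0.09 (SE 0.03, adjusted p = 0.00923). Sdhc rose by 0.11 (adjusted p = 0.00898).

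In complex III, 4 of 9 nuclear genes rose and none fell (median 0.08), and 6 rose under total counts (median 0.15). Cyc1, the cytochrome c1 subunit that hands electrons to cytochrome c, had 71.0, 77.0 and 88.3 CPM in WT mice and 80.7, 89.1 and 94.0 CPM with Q140 (lowest, median, highest). The upper WT mice reached into the Q140 range, and the log2 change was 0.17 (SE 0.04, adjusted p = 0.000677). The Rieske iron-sulfur protein gene Uqcrfs1 (0.16, adjusted p = 0.000181), the core gene Uqcrc2 (0.12, adjusted p = 0.00144; 24.2% of its words shared) and the hinge protein gene Uqcrh (0.10, adjusted p = 0.0362) also rose.

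In complex IV, 3 of 14 nuclear genes rose and 2 fell, with a median of 0.00, and under total counts 6 rose and none fell (median 0.07). Cox5a, a subunit of the matrix side, had 58.3, 61.5 and 69.6 CPM in WT mice and 64.9, 69.6 and 78.0 CPM with Q140 (lowest, median, highest). Its groups overlapped, with a log2 change of 0.17 (SE 0.04, adjusted p = 0.000494), and 29.2% of its words lie in the overlapping noncoding gene Gm26631. Cox7b (0.10, adjusted p = 0.0157) and Cox6c (0.08, adjusted p = 0.0144) rose as well. Cox8a, a small membrane-spanning subunit, changed by -0.13 (SE 0.04, adjusted p = 0.00791) and Cox4i2, an isoform linked to low oxygen, by -0.29 (SE 0.11, adjusted p = 0.0369) at only 1.98 CPM; neither passed under total counts (-0.07 and -0.23, adjusted p = 0.177 and 0.11). Cox6b2 had the greatest nuclear value, 0.41 (SE 0.17), which missed the threshold (adjusted p = 0.058).

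In the ATP synthase, 4 of 15 nuclear genes rose and none fell (median 0.06), and 10 rose under total counts (median 0.13). Atp5g1 (ENSMUSG00000006057, chromosome 11, 96068852 to 96075670, minus strand), a c-ring gene, had 25.0, 29.4 and 30.5 CPM in WT mice and 30.5, 36.4 and 37.0 CPM with Q140 (lowest, median, highest). The groups touched without overlapping, at 30.47 CPM for the highest WT and 30.51 for the lowest Q140 mouse. The log2 change was 0.29 (SE 0.05, adjusted p = 1.49e-05), the greatest among nuclear genes that passed. Of its words 11.1% are shared with other transcripts. Its paralogs did not pass: Atp5g3 had 0.06 (adjusted p = 0.093) and Atp5g2 -0.25 (adjusted p = 0.0747), and the difference between paralogs was not tested.

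The catalytic head genes Atp5b (0.16, adjusted p = 8.26e-05) and Atp5c1 (0.10, adjusted p = 0.00218) rose, as did the stalk gene Atp5f1 (0.10, adjusted p = 0.00433; 37.6% of its words shared). Atp5b had 757, 831 and 921 CPM in WT mice and 881, 952 and 988 CPM with Q140 (lowest, median, highest), with an overlap. Atp5s and Atp5sl match the symbol rule but encode factors outside the enzyme, and Atp5s rose by 0.18 (adjusted p = 0.0113). With all complexes together, the groups of 3 nuclear genes did not overlap (Atp5g1, Ndufc2 and Ndufs3), beside 8.97% of all genes tested. Under total counts those of 12 nuclear genes did not, beside 12.3%.

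Promoters were looked at because subunit genes share known regulators. Windows of 250 bases before to 50 after the start of the gene (RefSeq, GRCm38.p6) were found for 65 of the 79 nuclear genes. They are printed 5′ to 3′ for 4 genes chosen after their values were seen: Atp5g1, Ndufc2 and Sdha, which rose, and Atp5g3, the most abundant c-ring gene, which did not pass; capitals mark matches on either strand to the cores of NRF1 (GCGCANGCG), of the oestrogen-related receptors (CAAGGTCA) and of YY1 (AAGATGGC).
Atp5g1 (chr11:96075582-96075881, minus strand): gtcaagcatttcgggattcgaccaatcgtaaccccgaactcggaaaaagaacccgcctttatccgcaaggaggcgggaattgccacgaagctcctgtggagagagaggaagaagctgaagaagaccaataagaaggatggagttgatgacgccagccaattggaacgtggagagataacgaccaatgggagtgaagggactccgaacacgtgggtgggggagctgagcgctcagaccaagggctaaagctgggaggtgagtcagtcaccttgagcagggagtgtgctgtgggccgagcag
Atp5g3 (chr2:73911277-73911576, minus strand): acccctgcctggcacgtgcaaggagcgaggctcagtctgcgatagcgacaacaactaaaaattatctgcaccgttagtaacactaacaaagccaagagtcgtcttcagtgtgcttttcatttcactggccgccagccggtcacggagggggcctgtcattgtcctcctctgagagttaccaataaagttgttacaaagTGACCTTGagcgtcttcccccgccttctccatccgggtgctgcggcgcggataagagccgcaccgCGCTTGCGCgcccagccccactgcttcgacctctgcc
Ndufc2 (chr7:97399753-97400052, plus strand): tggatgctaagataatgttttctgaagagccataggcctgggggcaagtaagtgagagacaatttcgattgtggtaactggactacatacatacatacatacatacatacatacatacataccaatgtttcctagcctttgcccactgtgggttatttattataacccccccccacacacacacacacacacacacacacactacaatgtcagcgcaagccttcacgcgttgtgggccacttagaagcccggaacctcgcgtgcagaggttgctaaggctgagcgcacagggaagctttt
Sdha (chr13:74350191-74350490, minus strand): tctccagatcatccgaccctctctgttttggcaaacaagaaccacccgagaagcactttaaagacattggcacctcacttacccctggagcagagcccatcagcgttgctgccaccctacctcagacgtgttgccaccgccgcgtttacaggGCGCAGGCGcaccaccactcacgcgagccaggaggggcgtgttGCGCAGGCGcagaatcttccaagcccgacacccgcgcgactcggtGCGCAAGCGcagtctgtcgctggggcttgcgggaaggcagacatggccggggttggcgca
These letters occur at 3 places in the Sdha window, all of them NRF1 cores, and at 2 in that of Atp5g3 (1 NRF1 and 1 receptor core). The Atp5g1 and Ndufc2 windows hold no match, which says only that these letters are not in them. Shares were counted by gene, with a match in any window of the gene. The NRF1 core was found for 30.8% of the 65 genes against 9.13% of the 18934 genes of the table with a window. The receptor core was found for 6.15% against 1.61%, and the YY1 core for 16.9% against 3.48%. The 65 genes all passed the filter on low counts, while the comparison set was not limited to genes that did. The part of expression in these shares was not tested. A match is a string of letters, not evidence of binding.

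**Figure D3:**
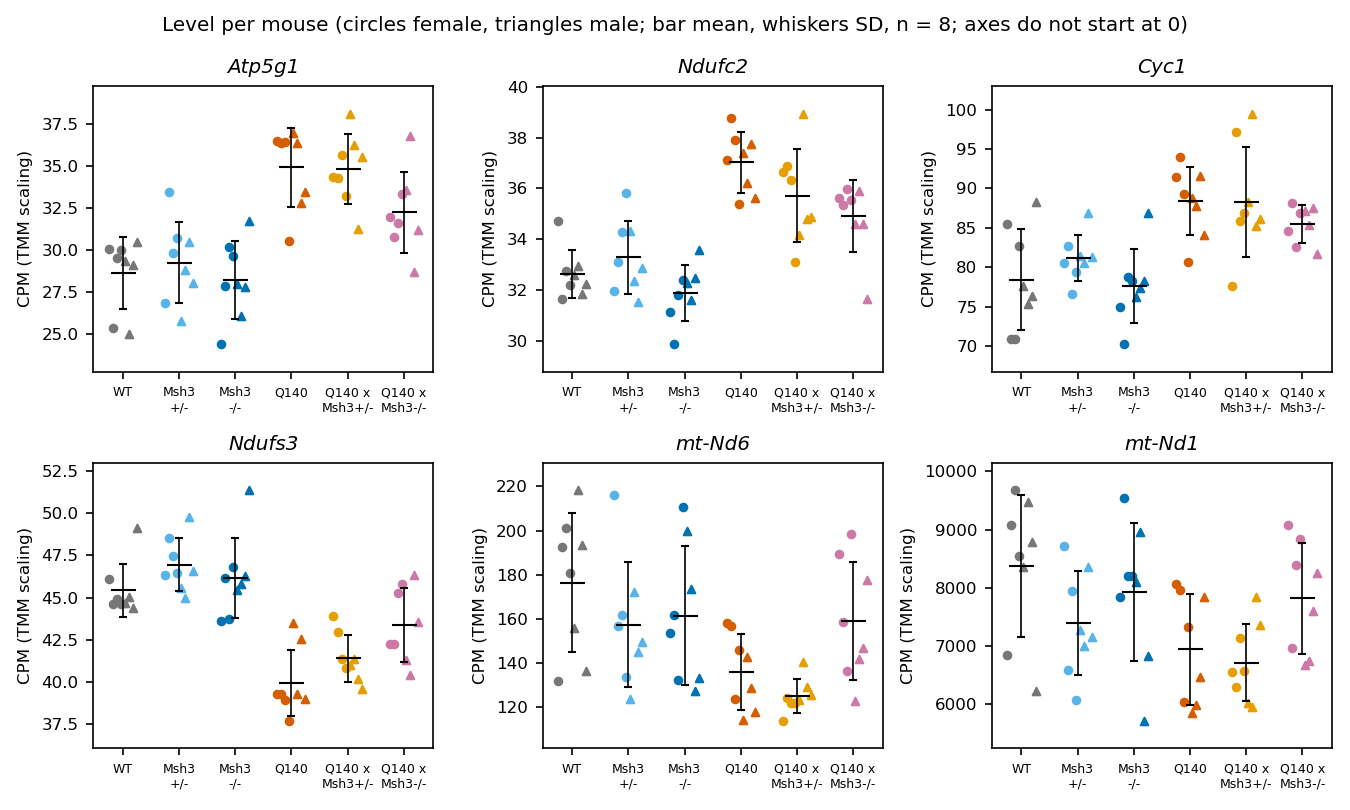
TMM-scaled level (CPM) of 4 nuclear and 2 mitochondrial genes in each of the 48 mice by genotype; circles are females, triangles males, and bars with whiskers the mean and SD of 8 mice, on axes that do not start at 0. Q140 mice lie above WT for Atp5g1 and Ndufc2 and below for Ndufs3 without overlap, whereas both mitochondrial genes overlap between all groups.

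All 11 mitochondrial genes had a Q140 minus WT value below 0 with TMM scaling, and 4 of them, all among the 6 complex I genes, passed the test. Female 1 and male 4 were the lowest WT mice for both mt-Nd1 (6844 and 6230 CPM) and mt-Nd6 (132 and 137 CPM). Genes that vary together between mice do not give separate results, so a sign shared by the 11, here and below, is not 11 results. How far they vary together was not tested. Levels of mt-Nd6 (ENSMUSG00000064368, chromosome M, 13552 to 14070, minus strand) were 132, 186 and 218 CPM in WT mice and 114, 136 and 158 CPM with Q140 (lowest, median, highest). The groups overlapped, with 4 of the 8 Q140 mice below the lowest WT mouse, and the log2 change was -0.38 (SE 0.11, adjusted p = 0.00725). Under total counts it was -0.31 (adjusted p = 0.0212), and it was then the only mitochondrial gene to pass. Without the 4 libraries of another name prefix its adjusted p was 0.0592.

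Levels of mt-Nd1 (ENSMUSG00000064341, chromosome M, 2751 to 3707, plus strand) were 6230, 8664 and 9679 CPM in WT mice and 5852, 6895 and 8064 CPM with Q140. The groups overlapped widely, with a log2 change of -0.27 (SE 0.09, adjusted p = 0.0207; total counts -0.20, adjusted p = 0.0591). For mt-Nd2 the levels were 4579, 6670 and 7630 CPM in WT mice and 4316, 5206 and 6376 CPM with Q140. Its change was -0.28 (SE 0.10, adjusted p = 0.0278; total counts -0.21, adjusted p = 0.0729), and that of mt-Nd3, whose level is uncertain, -0.40 (SE 0.14, adjusted p = 0.0243; total counts -0.33, adjusted p = 0.0552). Without the 4 libraries of another name prefix, mt-Nd2 and mt-Nd3 had adjusted p = 0.0599 and 0.0645. The other 7 genes did not pass: mt-Co1 had -0.05 (adjusted p = 0.607) and total counts turned its sign, mt-Cytb had -0.12 (adjusted p = 0.317), mt-Nd4 -0.11 (adjusted p = 0.321) and mt-Nd5 -0.15 (adjusted p = 0.222). The 3 remaining genes are those with 99.5% or more shared words: mt-Co3 at -0.24 (adjusted p = 0.0528), mt-Atp6 at -0.21 (adjusted p = 0.264) and mt-Co2 at -0.17 (adjusted p = 0.121). None of the 6 chromosome 1 copies passed.

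As sums, nuclear subunit RNA was 6740 ± 277 CPM in WT mice and 7005 ± 193 CPM with Q140 (SD, n = 8), 3.94% higher, and 9.02% higher under total counts (6584 ± 281 and 7177 ± 189 CPM). Mitochondrial RNA was 66258 ± 7106 CPM in WT mice and 60784 ± 7220 CPM with Q140, a difference of -8.26%, or -3.86% under total counts. The mitochondrial difference was smaller than the SD of either group. The other genotypes had nuclear sums of 6881 ± 115 CPM (Msh3+/-), 6641 ± 226 (Msh3-/-), 6930 ± 275 (Q140 x Msh3+/-) and 6968 ± 171 CPM (Q140 x Msh3-/-), and ranges that overlapped with WT.

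**Figure D4:**
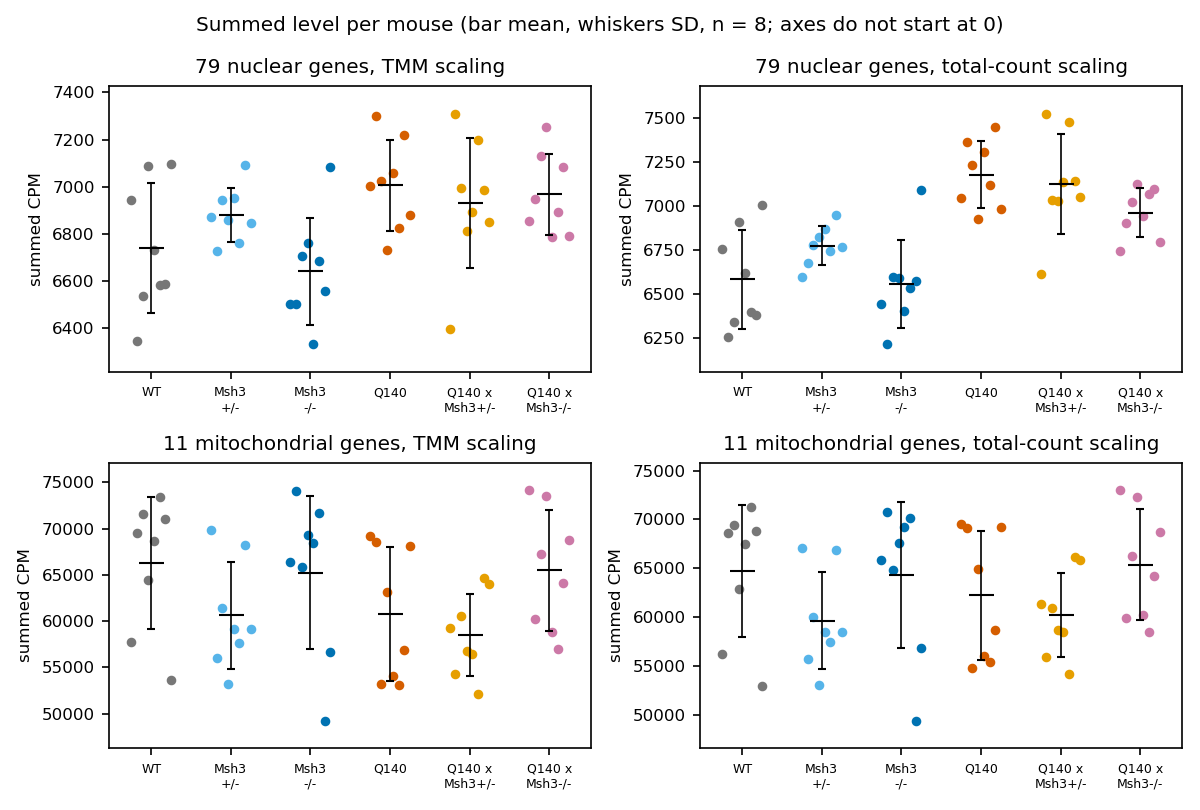
Summed level (CPM) of the 79 nuclear genes (top) and the 11 mitochondrial genes (bottom) per mouse and genotype, with TMM (left) and total-count scaling (right); bars and whiskers are the mean and SD of 8 mice, and the axes do not start at 0. The nuclear means of WT and Q140 are 6740 and 7005 CPM on the left and 6584 and 7177 on the right, and the mitochondrial points spread widely within every genotype.

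By the gene lengths behind the FPKM, 42 of the 79 nuclear subunit genes lie in the shortest of 5 equal classes of tested genes (0.055 to 1.55 kb). In that class 7.41% of all genes were higher and 9.13% lower in Q140 mice with TMM (median -0.02), and 14.2% and 6.31% with total counts (median 0.05). The shares called are thus lower among short genes than over all genes, and the part of length in the counts above was not tested.

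Loss of Msh3 alleles without Q140 gave no call among the 90 genes. In Msh3+/- minus WT 0 passed by edgeR's test, beside 0.0101% of all genes, and 4 had an unadjusted p under 0.05. In Msh3-/- minus WT 0 passed, beside 0.0457%, and 1 had an unadjusted p under 0.05. Both differ from the Q140 comparison in their background as well as in these genes. Percentages of all genes called, here and below, are for the adjusted p. Unadjusted counts of the 90 are given without the share of all genes, so no excess can be read from them.

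The Q140 effect was then read on each Msh3 background, where the 3 comparisons share no mice. In Q140 x Msh3+/- against Msh3+/-, 6 genes rose and 3 fell, beside 21.5% called, 10.8% higher and 10.8% lower over all genes. Under total counts 28 rose and 1 fell, beside 29.7%, 22.9% and 6.85%. In Q140 x Msh3-/- against Msh3-/-, 8 rose and none fell, beside 7.86% called, 4.01% higher and 3.84% lower. Under total counts 18 rose, beside 9.51%, 6.35% and 3.16%. With TMM the 9 calls of 90 were a smaller share than the background on the Msh3+/- background. The 8 calls of 90 on the Msh3-/- background were near the background in total and all in the higher direction.

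Atp5g1, Ndufc2 and Cyc1 rose with Q140 on all 3 backgrounds. For Atp5g1 the changes were 0.29 on the WT, 0.25 (adjusted p = 0.000197) on the Msh3+/- and 0.19 (adjusted p = 0.014) on the Msh3-/- background. For Ndufc2 they were 0.18, 0.10 (adjusted p = 0.0156) and 0.13 (adjusted p = 0.00626), and for Cyc1 0.17, 0.12 (adjusted p = 0.0255) and 0.14 (adjusted p = 0.0248). Without the 4 libraries that stand apart from the rest, the last Atp5g1 and Cyc1 values no longer passed (adjusted p = 0.113 and 0.0854). Without the filter on low counts the Ndufc2 value on the Msh3+/- background did not pass (adjusted p = 0.0589). Under total counts 9 genes rose on all 3, adding Atp5b, Atp5g3, Cox6c, Cox7b, Ndufs1 and Uqcrh, and none fell on all 3 under either scaling. The share of all genes called on all 3 backgrounds was not counted. These numbers therefore do not show a pattern particular to the subunit genes.

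On the Msh3+/- background Ndufb6 (0.16, adjusted p = 0.0213), Atp5sl (0.13, adjusted p = 0.00135) and the complex I gene Ndufv3 (0.12, adjusted p = 0.0205) also rose. Ndufs3 (-0.18, adjusted p = 3.01e-05), mt-Nd6 (-0.33, adjusted p = 0.0306) and the complex I gene Ndufs4 (-0.11, adjusted p = 0.0465) fell there. Over 11 alternatives the Ndufs4 value ran from -0.11 to -0.04 and did not pass under 5 (adjusted p up to 0.447). That of mt-Nd6 did not pass under 3 (adjusted p up to 0.0707). On the Msh3-/- background the further genes that rose were Atp5b (0.12, adjusted p = 0.0184), Atp5a1 (0.10, adjusted p = 0.0305), Atp5g3 (0.09, adjusted p = 0.0497), Ndufa10 (0.10, adjusted p = 0.025) and Sdha (0.09, adjusted p = 0.0302). Over the 11 alternatives Atp5g3 did not pass under 6, Atp5a1 and Sdha under 3 each and Atp5b under 1, while Ndufa10 passed under all. Ndufs3 was at -0.09 (adjusted p = 0.0914) on the Msh3-/- background, with 43.6, 46.0 and 51.4 CPM in Msh3-/- and 40.4, 42.9 and 46.3 CPM in Q140 x Msh3-/- mice (lowest, median, highest).

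**Figure D5:**
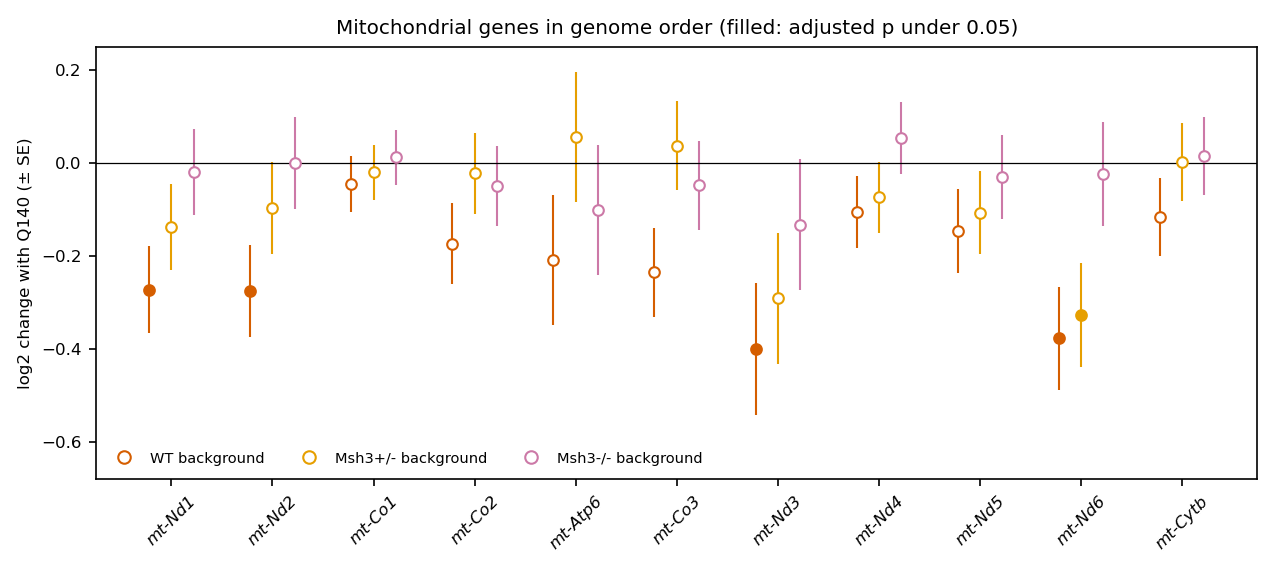
Log2 change with Q140 (TMM scaling, whiskers SE) of the 11 mitochondrial genes in the order of the mitochondrial genome, on the WT, Msh3+/- and Msh3-/- backgrounds; filled points passed the test. On the WT background mt-Nd1, mt-Nd2, mt-Nd3 and mt-Nd6 are filled and under total counts mt-Nd6 alone, on the Msh3+/- background mt-Nd6 is filled, and on the Msh3-/- background none is.

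Within Q140 mice, the crosses were compared with Q140 itself; these comparisons share the 8 Q140 mice with Q140 minus WT, so that opposite signs are favoured by the sharing. Q140 x Msh3+/- against Q140 gave 0 calls by edgeR's test, beside 1.32% of all genes, and 5 genes had an unadjusted p under 0.05. Q140 x Msh3-/- against Q140 gave 3 higher and 2 lower, beside 16.3% called, 8.75% higher and 7.57% lower. Ndufs3 (0.12, adjusted p = 0.0081), Cox5b (0.13, adjusted p = 0.014) and Ndufa1 (0.14, adjusted p = 0.0215) were higher, and Ndufc1 (-0.14, adjusted p = 0.0324) and Ndufs1 (-0.08, adjusted p = 0.0496) lower. In the same comparison 13 of 14 spiny projection neuron markers were higher and none lower, and their sum went from 8355 ± 350 to 11360 ± 831 CPM (SD, n = 8 each). Of the microglial, endothelial or mural, and astrocyte markers 3 of 12, 2 of 12 and 2 of 12 were higher and none lower, and of 9 cortical excitatory neuron markers Neurod6 alone was higher (1.88). Their part in the respiratory chain values was not tested. Total counts gave 0 higher and 15 lower subunit genes, beside 21.1% called, 6.51% higher and 14.6% lower. The 11 mitochondrial genes had a median of 0.14, all above 0 and none past the threshold. Q140 x Msh3-/- against Q140 x Msh3+/- gave 0 calls by edgeR's test, beside 3.23% of all genes, and 2 under total counts, beside 4.72%. With TMM 14 genes had an unadjusted p under 0.05, a count given without the share of all genes.

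Whether the Q140 effect itself differed between backgrounds was asked with interaction terms. On the Msh3+/- against the WT background 0 of 90 passed by edgeR's test, beside 0.0152% of all genes. An unadjusted p under 0.05 was found for 9, a count given without the share of all genes. On the Msh3-/- background Cox5b alone passed, a complex IV subunit of the matrix side, beside 6.15% of all genes, with 21.8% of its words shared. Its levels were 74.9, 77.9 and 88.8 CPM in WT, 70.6, 75.3 and 79.0 in Q140, 71.1, 76.1 and 82.0 in Msh3-/- and 75.3, 81.3 and 88.6 CPM in Q140 x Msh3-/- mice (lowest, median, highest). All 4 groups overlapped, and the interaction was 0.18 (SE 0.05, adjusted p = 0.0348), or 0.12 (adjusted p = 0.113) under total counts, where 0 of 90 genes and 8.78% of all genes passed. The mitochondrial genes had interactions with a median of 0.16, all above 0, and none passed.

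Over all 6 genotypes, 29 of the 90 genes differed somewhere by a test across genotypes (27 nuclear and 2 mitochondrial), beside 34.9% of all genes, and 50 under total counts, beside 41.9%. Between sexes Uqcrb alone differed, beside 4.26%: it was 31.7 ± 2.45 CPM in females and 29.0 ± 2.16 CPM in males (SD, n = 24 each; log2 change -0.13, male minus female, adjusted p = 0.00152), and 43.4% of its words are shared. Under total counts 2 genes differed between sexes, beside 4.91%. The Q140 effect differed by sex in 0 of the 90 genes and in 0 of all genes by edgeR's test, with 658 of all genes at an unadjusted p under 0.05.

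Genes around the chain were read from lists in the same Q140 minus WT comparison, in which 17.0% of all genes were higher and 16.0% lower. Of 13 complex I assembly genes 3 rose and none fell (median 0.05): Tmem126b by 0.17, Acad9 by 0.13 and Ndufaf7 by 0.10. Of 31 assembly genes for complexes II to V 6 rose and 2 fell (median 0.02), with Cox16, which helps assemble complex IV, at 0.24. Another list held 16 electron carrier genes, for ubiquinone, cytochrome c and the electron transfer flavoprotein with its dehydrogenase (Etfa, Etfb and Etfdh). Of these 5 rose (median 0.06), with the ubiquinone synthesis genes Coq3 at 0.20 and Pdss1 at 0.15. Of 13 citric acid cycle genes 4 rose and 1 fell, with Idh3a, a subunit of isocitrate dehydrogenase, at 0.27 and citrate synthase, Cs, at 0.15. Of 77 mitochondrial ribosomal protein genes 12 rose and 6 fell, with a median of 0.02.

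Among 10 nuclear regulators of respiratory genes Pprc1 (0.16) and Yy1 (0.10) rose and the coactivator gene Ppargc1b fell (-0.34, adjusted p = 0.000242). Its relative Ppargc1a had 0.11 (adjusted p = 0.0643) and Esrra, an oestrogen-related receptor gene, -0.11 (adjusted p = 0.0781). Of 19 genes for the upkeep and expression of mitochondrial DNA 2 rose, Fastkd2 by 0.14 and Lrpprc by 0.07. The mitochondrial rRNA genes mt-Rnr1 (-0.17, adjusted p = 0.0542) and mt-Rnr2 (-0.14, adjusted p = 0.152) did not pass, while 2 of 8 mitochondrial tRNA genes fell. In Q140 x Msh3-/- against Q140, 8.75% of all genes were higher and 7.57% lower. There 4 of 13 complex I assembly genes and 3 of 16 carrier genes (Pdss1, Etfa and Etfdh) fell and none rose. Idh3a fell by 0.16 and Ppargc1b rose by 0.20.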

How the data were processed

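Striatal RNA of 48 mice was sequenced from stranded TruSeq libraries, per the labels' protocols. The authors deposited whole-number counts per gene and FPKM values for the same genes. STAR 2.7.5c, SAMtools 1.10, HTSeq 0.12.3 and build GRCm38 (mm10) are named in the submitters' processing notes; not given in the sources used here are the annotation release, the strand setting and the treatment of reads matching several places.

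The 90 genes and the lists around them were chosen with earlier results of these data known. Genotype, sex and number came from the titles. Genes passing filterByExpr (minimum count 10) were tested with edgeR 4.0.16 in R 4.3.3 (limma 3.58.1): TMM factors, robust quasi-likelihood F-test over all 48 libraries with genotype and sex as terms, 41 residual degrees of freedom, Benjamini-Hochberg adjustment over 19714 genes, threshold 0.05. The fit was also run on simulated counts with the same dispersion for every gene, unlike these data, and no result given here rests on that run. Total-count scaling, DESeq2 1.42.0 and other settings were alternatives. CPM levels are TMM-scaled in the tests; the membership limit, the shared-word comparison and the levels of genes left out use CPM of total counts. The named genes were, in each comparison, all called genes of the 90 where 20 or fewer passed and otherwise the 8 strongest rises and 8 strongest falls; the mitochondrial genes; the isoform families; the highest and lowest FPKM of each complex; and up to 3 called genes per other list. Further names were chosen after their values were seen.

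Per-gene precision is given by the SE, and depth by library totals of 38.9 to 60.9 M counts. Each library is a separate mouse. Symbols were used as deposited, coordinates came from GENCODE M21, and shared words of 50 bases were counted against all its transcripts. All sample columns were used.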

Additional observations from a re-analysis of the deposited data

Results flagged for a closer look

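In the groups of 8 mice, 13 of 264 gene and group combinations (44 genes and sums in 6 genotypes) had an end value whose gap to the nearest mouse was above Dixon's 95% critical value; chance gives about 1 in 20 groups. In WT mice these were Atp5s in male 1 at 12.4 CPM (nearest 10.4), Cox5b in female 4 at 88.8 CPM (nearest 79.1), Ndufc2 in female 1 at 34.7 CPM (nearest 33.0), Ndufs3 in male 4 at 49.1 CPM (nearest 46.1) and Sdha in female 2 at 343 CPM (nearest 367). In Msh3-/- mice they were Atp5sl in female 4 at 38.5 CPM (nearest 35.5), and 3 genes in male 4: Cox5a at 70.6 CPM (nearest 62.8), Ndufs3 at 51.4 CPM (nearest 46.8) and Uqcrc2 at 141 CPM (nearest 131). In Q140 x Msh3-/- mice they were Ndufa10 in male 1 at 93.6 CPM (nearest 102), Ndufc2 in male 4 at 31.6 CPM (nearest 34.6) and Uqcrh in female 4 at 104 CPM (nearest 96.5). In Q140 mice Uqcrh stood at 87.3 CPM in male 2 (nearest 96.4).

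The Q140 effect on Cox5b differed between the Msh3-/- and WT backgrounds, by 0.18 on the log2 scale (edgeR's quasi-likelihood test of the interaction, adjusted p = 0.0348). The high WT mouse named above for Cox5b enters that difference. The value ran from 0.12 to 0.18 over the alternatives, with an adjusted p of up to 0.206, and under 7 of 11 alternatives it did not pass.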

How the results depend on the processing

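Most counts of called genes moved with the scaling, and no called value changed sign under an alternative. For Q140 minus WT, total counts gave 46 higher and 2 lower in place of 18 and 9, the same numbers with mitochondrial genes left out of the totals (46 and 2), and the lower count was 4 without the 4 libraries of another name prefix and 3 with the prefix as a term. With total counts, and with total counts without mitochondrial genes, the calls were 15 and 13 for Q140 x Msh3-/- minus Q140 (5 with TMM), 2 and 2 for Q140 x Msh3-/- minus Q140 x Msh3+/- (0), 29 and 30 for Q140 x Msh3+/- minus Msh3+/- (9), 18 and 18 for Q140 x Msh3-/- minus Msh3-/- (8), 0 and 0 for the Msh3-/- interaction (1), 2 and 2 between sexes (1), and 50 and 49 over all genotypes (29). The nuclear sum was 9.02% higher in Q140 with total counts. With no filter the calls were 3 for Q140 x Msh3-/- minus Q140, 5 for Q140 x Msh3-/- minus Msh3-/- and 0 for the interaction. With the well column as a term they were 5 for Q140 x Msh3-/- minus Q140 x Msh3+/-, 5 for Q140 x Msh3-/- minus Msh3-/- and 2 between sexes, and DESeq2 gave 2 for the former. Without the 4 libraries that stand apart, Q140 x Msh3-/- minus Msh3-/- had 2 calls and the interaction 0, and the interaction had 0 without the libraries of another prefix and with the prefix term. The alternative without the libraries that stand apart was chosen after seeing the data. The cause of these shifts was not tested.

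Mice of the same sex and number but another genotype had a mean residual correlation of r = -0.0137 (120 pairs, 7 over 0.1). Mice of the same sex but another number and genotype had -0.0258 (360 pairs, 14 over 0.1). Of 48 libraries, 17 correlated best with their own number, where each sex has 4 numbers. The 4 libraries that stand apart all have number 1. Whether the numbers mark a pairing was not tested. A fit with the replicate number as a block called 29 of the 90 genes in Q140 minus WT, 27 of them shared with the fit without it, and 1 in Q140 x Msh3-/- minus Q140 x Msh3+/-. Of the Q140 minus WT calls, 27 were shared with DESeq2, 20 with total counts, 19 without the libraries of another prefix and 23 with no filter. Depth limits the 10 genes with levels under 5 CPM: Cox4i2, Cox6a2, Cox6b2, Atp5g2, Atp5l, Ndufb4, mt-Nd3, mt-Atp6, mt-Co2 and mt-Co3, the last 4 of which also share nearly all of their sequence. Atp5l, Atp5g2 and Ndufb4 share 84.8%, 38.3% and 37.0% of their words with other transcripts.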

Other observations

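Lists outside the chain gave the following in Q140 minus WT, by edgeR's quasi-likelihood test at an adjusted p of 0.05, beside 17.0% of all genes higher and 16.0% lower with TMM, and 29.3% and 10.5% with total counts. Of 38 proteasome genes 14 rose and none fell (median log2 change 0.09), with Psmb10, a subunit of the immunoproteasome, at 0.48. Under total counts 29 rose. In Q140 x Msh3-/- minus Q140, which shares the Q140 mice, 1 proteasome gene rose and 8 fell, beside 8.75% and 7.57% of all genes. Of 79 cytosolic ribosomal protein genes 2 rose and 5 fell (median -0.01), and under total counts 11 rose and 1 fell. Of 16 glycolysis genes 6 rose and 2 fell, with Pgk1, which makes ATP in the cytosol, at 0.18 and the enolase gene Eno1 at -0.21. Among 8 tested mitochondrial tRNA genes, mt-Tt (-0.78) and mt-Ti (-0.53) fell, at levels summing to 20.5 ± 3.09 CPM in WT mice and 16.5 ± 2.49 CPM with Q140 over 22 tRNA genes (SD, n = 8).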
